A study of Homo sapiens with 9 samples.

Results

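Contacts of the MYC promoter were examined in 9 Capture-C libraries of HCT-116 MED14-dTAG cells. HCT-116 cells are a long-established line from a human colorectal carcinoma, and in the MED14-dTAG derivative the Mediator subunit MED14 carries a degron tag, so that the dTAG ligand triggers its degradation. All 3 groups carry this tagged allele. The first group was treated with 0.5 μM dTAG ligand for 2 h (dTAG), the second with the same ligand and 1 μM of the BET inhibitor I-BET 151 for 90 min (dTAG+I-BET), and the third with DMSO only, with 3 libraries in each. No group received I-BET without dTAG ligand, so that an effect of I-BET is seen only on top of MED14 depletion. The members are the DpnII fragments on chromosome 8 (hg38) within 500 kb of the MYC transcription start site at position 127735434, together with those out to 2.5 Mb downstream. They amount to 6937 of the 11339756 fragment rows that the series holds for 20 promoters. Within 500 kb there were 2367 fragments, of which 2355 had signal in at least 1 library, and from 500 kb to 2.5 Mb downstream there were 4570, of which 4309 had signal.

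MYC encodes a basic helix-loop-helix transcription factor that drives growth and proliferation, and its expression is raised in most colorectal cancers. The gene lies in a region with few protein-coding genes, where enhancers that differ between tissues sit far from the promoter on both sides. In colorectal cells an upstream stretch that holds the noncoding RNA genes CCAT1, CASC19, CASC21 and CASC8 carries strong enhancers and inherited risk variants for colorectal cancer, whereas enhancers far downstream, within CCDC26, are known from blood cells. Mediator links transcription factors at enhancers with RNA polymerase II at promoters, cohesin extrudes chromatin loops, and BET proteins bind acetylated histones at active enhancers.

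In Capture-C, chromatin is cut with DpnII and religated, and fragments ligated to a chosen promoter, the viewpoint, are enriched and sequenced. The deposited value of a fragment, called signal here, is its scaled number of interactions with the viewpoint. The authors scaled each library to nearly the same total within the chromosome. A level is thus a share of the contacts within the chromosome of the viewpoint, not of all contacts and not an absolute number. Interactions of MYC with other chromosomes, as a percentage of all, were 33.5, 35.1 and 38.9 in dTAG, 40.3, 40.9 and 38.9 in dTAG+I-BET, and 36.9, 35.8 and 36.7 in DMSO. All dTAG+I-BET libraries lay above DMSO in this percentage, a difference that was not tested. Signal is given per kb of sequence. The fragment of the MYC viewpoint itself, from 127735617 to 127736341, has no row and lies just inside the gene, which runs on the plus strand to 127742951. Upstream here means towards lower coordinates. The MYC viewpoint held 21307 to 49460 interactions within chromosome 8 in a library, against 10698 to 60241 over all 20 viewpoints, and a 10-kb bin of MYC held 17 to 878 (median 96.0). The third dTAG library stood furthest apart in its decay with distance. It was the single library with more interactions from 500 kb to 2.5 Mb downstream (7631) than from 10 to 500 kb (7610). The count of calls without it is given beside the results it moves. Among the DMSO libraries the third leaned the same way, with 8715 against 11564 interactions. The first DMSO library held 4720 against 8893 and the second 10407 against 19430. The third DMSO library enters both comparisons with DMSO. Replicates of a group correlated with a Pearson r of 0.879 to 0.956 over the 98 MYC bins. The replicates are described as biologically independent in the methods, while the deposited columns mark them with unexplained letters, so that p-values measure the spread between these libraries, which may in part be technical.

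Contacts of MYC with its distal upstream side were lower after MED14 depletion, with or without I-BET. From 200 to 500 kb upstream, signal per kb was 177, 178 and 170 in dTAG, 179, 182 and 180 in dTAG+I-BET, and 292, 252 and 268 in DMSO. Every library with dTAG ligand lay below every DMSO library, and the treated libraries hardly differed from each other. The mean of this band was 175 ± 4.69 per kb in dTAG against 271 ± 20.3 in DMSO (SD, n = 3 each), a log2 ratio of -0.62 (SE 0.09, limma adjusted p = 0.0073) or 35.0% less. In dTAG+I-BET it was 180 ± 1.73 per kb, a log2 ratio to DMSO of -0.58 (SE 0.09, limma adjusted p = 0.0026) or 33.1% less. These comparisons share their DMSO libraries, so that a chance deviation of DMSO would enter both.

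This was the single band called among the 14 of MYC, 7 on each side between 1 kb and 2.5 Mb, in either comparison with DMSO. Over the 280 bands of all 20 viewpoints, 2.14% were called in dTAG and 3.93% in dTAG+I-BET, and the MYC band was the single one called lower in dTAG (0.357%). In dTAG+I-BET 1.07% of all bands were called lower. When only the compared groups were fitted, the limma adjusted p of this band in dTAG was 0.0646. Without the third dTAG library 2 MYC bands were called in dTAG and 4 in dTAG+I-BET. The share of all bands called without that library was not taken. An exact permutation test of 3 against 3 libraries cannot go below 0.1, and it gave that value for both comparisons.

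Closer to the gene the upstream bands showed smaller differences. Within 10 kb of MYC on either side, signal was 2366 to 5544 per kb in all 9 libraries, and each treated group overlapped DMSO. At 100 to 200 kb, signal per kb was 222, 200 and 166 in dTAG, 260, 234 and 229 in dTAG+I-BET, and 281, 293 and 236 in DMSO. The dTAG libraries lay below all DMSO libraries, whereas those with I-BET overlapped them. The log2 ratios were -0.46 for dTAG and -0.16 for dTAG+I-BET, and neither was called (limma adjusted p = 0.115 and 0.621). At 50 to 100 kb upstream, signal per kb was 369, 363 and 282 in dTAG, 372, 372 and 387 in dTAG+I-BET, and 502, 416 and 397 in DMSO. All treated libraries were below DMSO, with log2 ratios of -0.38 and -0.21 that were not called (limma adjusted p = 0.219 and 0.421). At 500 to 1000 kb, values of 158, 163 and 192 per kb in dTAG and 158, 155 and 166 in dTAG+I-BET stood against 194, 192 and 250 in DMSO. Only the dTAG+I-BET libraries lay entirely below DMSO there, with a log2 ratio of -0.39 that missed the threshold (limma adjusted p = 0.104).

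**Figure D1:**
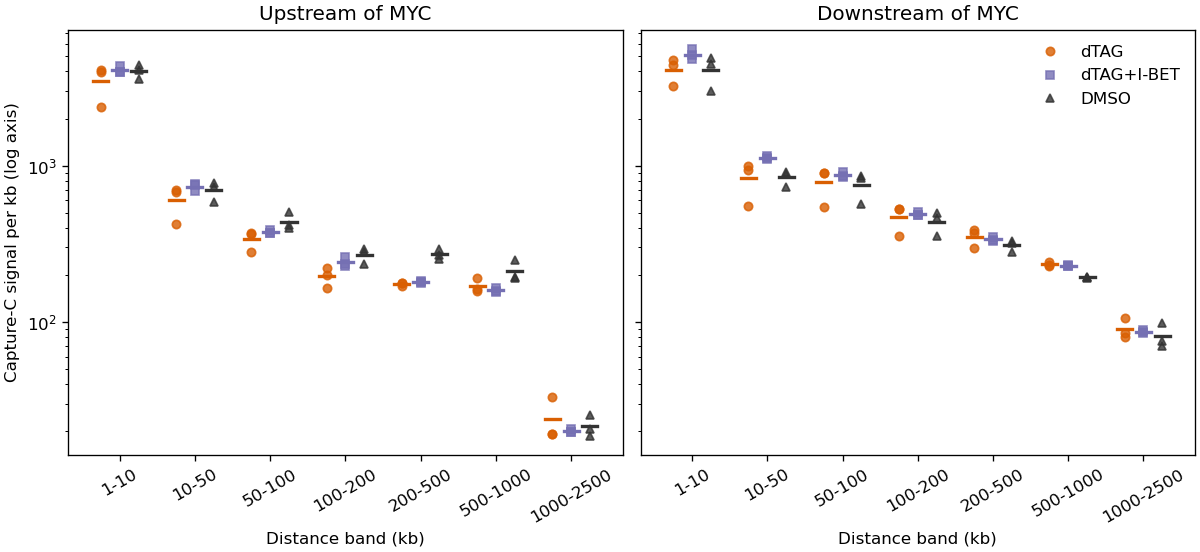
Capture-C signal per kb of the MYC promoter (log axis) in 7 bands of distance upstream (left) and downstream (right), for dTAG, dTAG+I-BET and DMSO. Each point is a library and each bar the mean of 3, and the groups separate most clearly at 200 to 500 kb upstream, where the treated libraries sit between 170 and 182 and those of DMSO between 252 and 292.

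Downstream, no band was called in either comparison. At 10 to 50 kb, signal per kb was 998, 945 and 556 in dTAG, 1098, 1151 and 1117 in dTAG+I-BET, and 917, 882 and 726 in DMSO. Only the dTAG+I-BET libraries lay entirely above DMSO there. The log2 ratios were -0.05 for dTAG and 0.42 for dTAG+I-BET (limma adjusted p = 0.935 and 0.254). At 200 to 500 kb downstream, a stretch that holds the distal part of PVT1, signal per kb was 369, 387 and 300 in dTAG, 352, 332 and 331 in dTAG+I-BET, and 320, 330 and 280 in DMSO. The dTAG libraries overlapped those of DMSO, and the dTAG+I-BET libraries lay just above them. The log2 ratios of 0.18 (95% interval -0.08 to 0.43) and 0.13 (-0.12 to 0.38) were not called. From 500 to 1000 kb downstream, signal per kb was 232, 243 and 229 in dTAG, 232, 229 and 228 in dTAG+I-BET, and 195, 195 and 191 in DMSO. All 6 treated libraries were above the DMSO libraries, with log2 ratios of 0.28 and 0.25 that missed the threshold (limma adjusted p = 0.115 and 0.104).

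Within each library the upstream band can be set against the downstream band at the same distance, a difference that does not depend on how that library was scaled. At 200 to 500 kb this log2 difference was -1.05, -1.11 and -0.82 in dTAG, -0.97, -0.86 and -0.87 in dTAG+I-BET, and -0.13, -0.39 and -0.06 in DMSO. In DMSO the upstream side was thus only slightly below the downstream side at this distance, and in treated cells the upstream side was clearly the lower one. The change was -0.80 in dTAG (SE 0.11, limma adjusted p = 0.0012) and -0.71 in dTAG+I-BET (SE 0.11, limma adjusted p = 0.0013). At MYC 3 of 7 distances were called in dTAG, those from 100 kb to 1 Mb, where 17.1% of 140 distances were called over all viewpoints. In dTAG+I-BET 5 of 7 were called, from 10 kb to 1 Mb, where 35.7% were called over all viewpoints. Without the third DMSO library, or without either the second or the third dTAG+I-BET library, 3 of those 5 were called. Upstream signal made up 33.7 ± 2.15% of the signal from 10 to 500 kb in dTAG, 34.6 ± 0.275% in dTAG+I-BET and 43.2 ± 2.18% in DMSO (SD, n = 3 each; exact permutation p = 0.1 for each against DMSO, the smallest possible).

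In 10-kb bins, ratios to DMSO were lower on the upstream side, most of all beyond 200 kb. All 49 upstream bins had a log2 ratio below 0 in dTAG, with a median of -0.55, against a median of -0.07 over the 1960 bins of all viewpoints, 60.2% of which were below 0. In 30 of the 49 no dTAG library overlapped DMSO and all were lower, which held for 10.1% of all bins. In dTAG+I-BET this was so for 22 of the 49, against 11.2% of all bins. The median deepened with distance, from -0.29 within 100 kb to -0.45 at 100 to 200 kb, -0.65 at 200 to 300 kb, -0.60 at 300 to 400 kb and -0.65 at 400 to 500 kb. Within 200 kb of MYC no upstream bin was called. In dTAG+I-BET the medians over the same steps were -0.03, -0.15, -0.46, -0.47 and -0.73, with 44 of 49 bins below 0 against 47.8% of all bins.

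**Figure D2:**
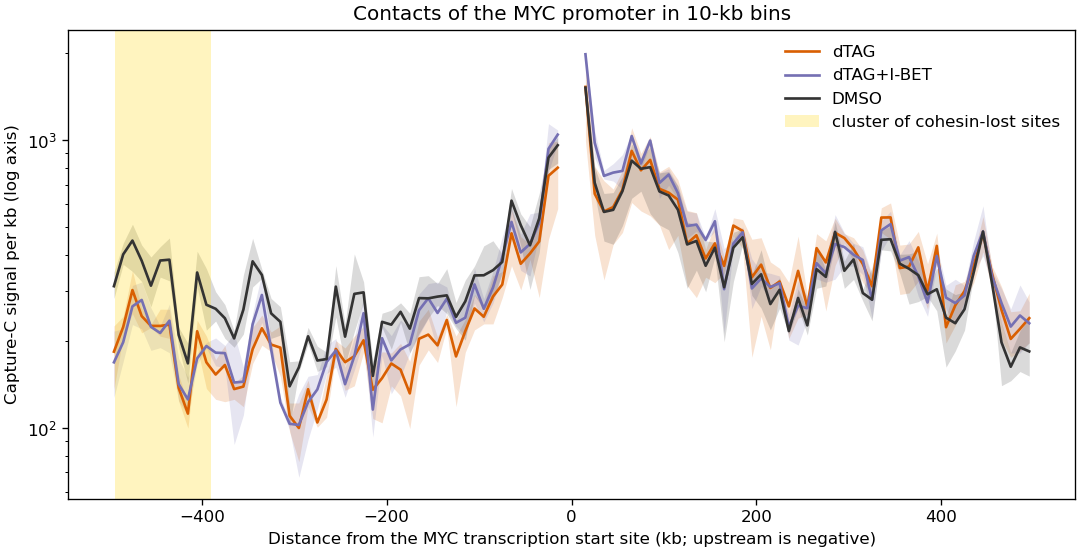
Signal per kb (log axis) of the MYC promoter in 10-kb bins by distance from the transcription start site in kb, upstream negative. Lines are the means of 3 libraries for dTAG, dTAG+I-BET and DMSO, shading around them spans the lowest to the highest library, and the yellow stretch is the cluster of 9 cohesin-lost sites, where the DMSO line runs above both treated lines.

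Single bins passed the test only upstream. In dTAG, limma called 4 of the 98 MYC bins at an adjusted p under 0.05, all lower, where 1.58% of all 1960 bins were called and 0.408% were called lower. In dTAG+I-BET it called 11, all lower, where 4.9% of all bins were called and 1.43% were called lower. The dTAG count depended on single libraries, with 0 bins called without the first DMSO library, 2 without the second dTAG library and 9 (8 lower and 1 higher) without the third dTAG library. The dTAG+I-BET count was 4 without the first DMSO library or without either the first or the second dTAG+I-BET library, 6 without the third DMSO library, and 7 without the second DMSO library or without the third dTAG+I-BET library. The calls in dTAG+I-BET of the bins at 310 to 320, 400 to 410 and 480 to 490 kb upstream held when any one library was left out, and no call of a single bin in dTAG did.

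The called bin with the lowest ratio in dTAG lay 340 to 350 kb upstream (127385434 to 127395433). It lies within the annotated bodies of POU5F1B, a retrogene copy of the pluripotency factor gene POU5F1, and of the noncoding RNA gene CASC8. The noncoding RNA gene CASC21 covers only a part of it. Signal per kb of the bin was 167, 223 and 172 in dTAG, 244, 249 and 194 in dTAG+I-BET, and 456, 309 and 373 in DMSO. All treated libraries were below DMSO, with log2 ratios of -1.01 (limma adjusted p = 0.0047) and -0.71 (0.034). The adjusted p rose to 0.057 in dTAG without the first DMSO library, and lay between 0.071 and 0.217 in dTAG+I-BET without the first DMSO library, without the third DMSO library or without any one dTAG+I-BET library.

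The bin 480 to 490 kb upstream (127245434 to 127255433, in CASC21) was called in both comparisons. It held 220, 208 and 244 per kb in dTAG, 204, 170 and 221 in dTAG+I-BET, and 438, 394 and 370 in DMSO. Treated values were thus close to or below 250 and DMSO values above 350. The log2 ratios were -0.83 (limma adjusted p = 0.0090; 0.085 without the first DMSO library) and -1.02 (limma adjusted p = 0.0012). The bin 440 to 450 kb upstream, in CASC21 and in part in CASC8, was also called in both. It held 211, 208 and 258 per kb in dTAG, 226, 190 and 225 in dTAG+I-BET, and 384, 334 and 426 in DMSO, with log2 ratios of -0.75 and -0.83 (limma adjusted p = 0.026 and 0.0083). The fourth dTAG call, 380 to 390 kb upstream, had a log2 ratio of -0.76 at an adjusted p of 0.04998, just inside the threshold, and a ratio of -0.50 in dTAG+I-BET that was not called.

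The other 8 bins called in dTAG+I-BET lay 250 to 500 kb upstream. At 400 to 410 kb, a bin at the end of the POU5F1B gene that is farther from MYC, signal per kb was 191, 236 and 223 in dTAG, 182, 166 and 174 in dTAG+I-BET, and 411, 321 and 308 in DMSO. No treated library reached the DMSO range. The log2 ratio to DMSO was -0.98 in dTAG+I-BET (limma adjusted p = 0.0024) and -0.67 in dTAG (0.059). At 310 to 320 kb the values were 226, 193 and 151 in dTAG, 120, 119 and 128 in dTAG+I-BET, and 210, 227 and 264 in DMSO. Here dTAG overlapped DMSO and dTAG+I-BET lay below both, with a log2 ratio to DMSO of -0.92 (limma adjusted p = 0.0095). The remaining 6 bins began 250, 280, 350, 430, 470 and 490 kb upstream and had log2 ratios of -0.90 to -0.71 in dTAG+I-BET and of -0.86 to -0.56 in dTAG, where none of them was called. All bins called between 310 and 500 kb upstream also overlap PCAT1, a further noncoding RNA gene, as GENCODE 44 annotates it.

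**Figure D3:**
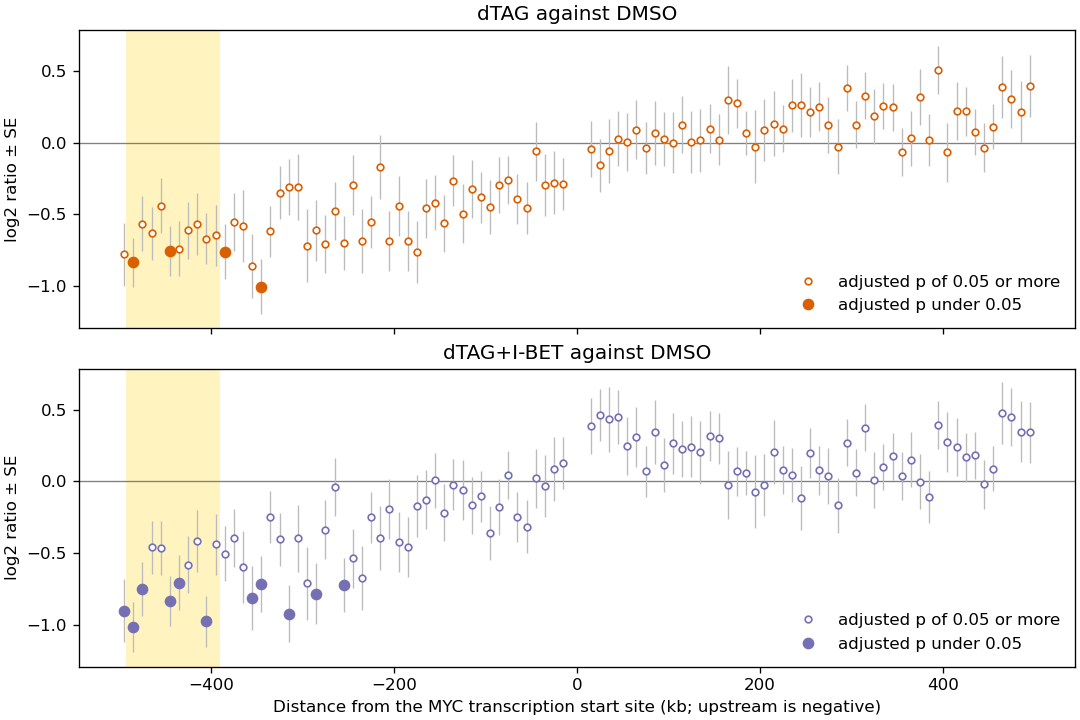
Log2 ratio of MYC signal to DMSO (y axis, with SE) in 10-kb bins by distance from the start site in kb for dTAG (top) and dTAG+I-BET (bottom). Filled points passed an adjusted p of 0.05 (4 in dTAG and 11 in dTAG+I-BET, all upstream), the yellow stretch is the cluster of cohesin-lost sites, and log2 ratios are below 0 in all 49 upstream bins in dTAG and in 44 in dTAG+I-BET.

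Where the MYC promoter made its strongest distant contacts was described in DMSO. Levels were set against the mean of the other 19 viewpoints at the same distance, taken over both sides of each. Upstream, the 5 bins most above that mean lay 430 to 490 kb away, in the stretch of CASC21 and CASC8. The first of them, at 470 to 480 kb, averaged 448 per kb in DMSO, against 104 over the other viewpoints. That bin held 250, 302 and 352 per kb in dTAG, 252, 313 and 229 in dTAG+I-BET, and 483, 350 and 510 in DMSO, and was called in dTAG+I-BET only (log2 -0.75, limma adjusted p = 0.028). These bins were picked on their DMSO level, which is also what treated libraries are compared with, so that chance highs in DMSO favour lower ratios among them and their ratios carry no separate weight.

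Downstream, the 5 bins most above the other viewpoints all overlapped PVT1, a noncoding RNA gene whose promoter is known to compete with that of MYC for enhancers in breast cancer cells. They lay at 330 to 350 and 430 to 460 kb. At 440 to 450 kb, near the end of PVT1, signal per kb was 467, 542 and 409 in dTAG, 591, 396 and 457 in dTAG+I-BET, and 460, 490 and 493 in DMSO, against 123 over the other viewpoints. The groups overlapped, and the log2 ratios to DMSO were -0.03 and -0.02. The log2 ratios of the other 4 bins lay between 0.07 and 0.25 in both comparisons, and none was called.

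Sites that lost cohesin were taken by position from the study's list of sites with less of the cohesin subunit SMC1A in CUT&Tag after dTAG treatment of the same cell line. Their choice did not use Capture-C, but it used the same contrast of dTAG with DMSO. Of these sites, 9 lay close together 395 to 488 kb upstream of MYC. Over this cluster, with 5 kb added on each side (127242110 to 127345445), signal per kb was 208, 197 and 218 in dTAG, 202, 212 and 195 in dTAG+I-BET, and 343, 290 and 339 in DMSO. All 6 treated libraries were below all DMSO libraries, by a margin larger than the spread in any group. The log2 ratio was -0.64 in dTAG (SE 0.11, 95% interval -0.87 to -0.40, limma adjusted p = 0.00070) and -0.67 in dTAG+I-BET (SE 0.11, interval -0.91 to -0.44, limma adjusted p = 0.00041). Among the 16 loci with such a cluster, 31.2% were called in dTAG and 37.5% in dTAG+I-BET. The calls at MYC held under every alternative tried, with log2 ratios of -0.72 to -0.56 in dTAG and -0.75 to -0.63 in dTAG+I-BET.

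No larger decrease was detected in the cluster than in its surroundings. The rest of the sequence 200 to 500 kb upstream held 161, 169 and 144 per kb in dTAG, 167, 167 and 172 in dTAG+I-BET, and 265, 232 and 231 in DMSO. Here too the treated libraries were all below DMSO, with log2 ratios of -0.61 and -0.52. Set against this surrounding sequence within each library, the cluster was higher by a log2 difference of 0.37, 0.22 and 0.59 in dTAG, 0.27, 0.34 and 0.18 in dTAG+I-BET, and 0.37, 0.32 and 0.56 in DMSO. These values overlapped between groups (changes of -0.02 in dTAG and -0.15 in dTAG+I-BET, exact permutation p = 0.9 and 0.2), so that a decrease particular to the cluster was not detectable with 3 libraries a group.

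Single cohesin-lost sites passed the limma test only upstream and only in dTAG+I-BET. Windows of 5 kb on either side of a site gave 12 within 500 kb of MYC and 2 far downstream, and neighbouring windows in the cluster overlap and share fragments. In dTAG limma called 0 of these 14 and 0% of 208 windows over all viewpoints. Of the 14, 9 had an unadjusted p under 0.05, 9 were called by edgeR, and 3 by limma without the third dTAG library. For these counts the share over all viewpoints was not taken, so that they cannot be set against other windows. In dTAG+I-BET 6 were called, all lower and all in the upstream cluster, where 8.17% were called over all viewpoints. That count was 3 without the first DMSO library or without either the first or the second dTAG+I-BET library. The site 488 kb upstream had 212, 197 and 217 per kb in dTAG, 154, 152 and 209 in dTAG+I-BET, and 318, 329 and 313 in DMSO. No treated library came near the DMSO range, and the log2 ratios were -0.61 (limma adjusted p = 0.055) and -0.91 (0.0088).

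All 9 cluster sites had dTAG and dTAG+I-BET libraries below every DMSO library, which held for 19.7% of all windows in dTAG and 29.8% in dTAG+I-BET. The groups overlapped at the remaining 5 sites. The site 67 kb upstream had 576, 426 and 345 per kb in dTAG, 477, 464 and 589 in dTAG+I-BET, and 657, 555 and 515 in DMSO. The site 75 kb downstream had 920, 931 and 563 in dTAG, 807, 883 and 879 in dTAG+I-BET, and 911, 891 and 671 in DMSO. At the 67 kb site 1 library of each treated group lay within the DMSO range, and at the 75 kb site the dTAG+I-BET libraries all did. The site 342 kb downstream, in PVT1, had 624, 550 and 473 in dTAG, 498, 438 and 544 in dTAG+I-BET, and 425, 482 and 402 in DMSO. Treated libraries of the PVT1 site overlapped with DMSO, and its log2 ratios were 0.33 and 0.18 (limma adjusted p = 0.264 and 0.480). The sites at 1942 and 1975 kb downstream had log2 ratios of 0.18 and 0.01 in dTAG and of -0.08 and -0.10 in dTAG+I-BET.

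**Figure D4:**
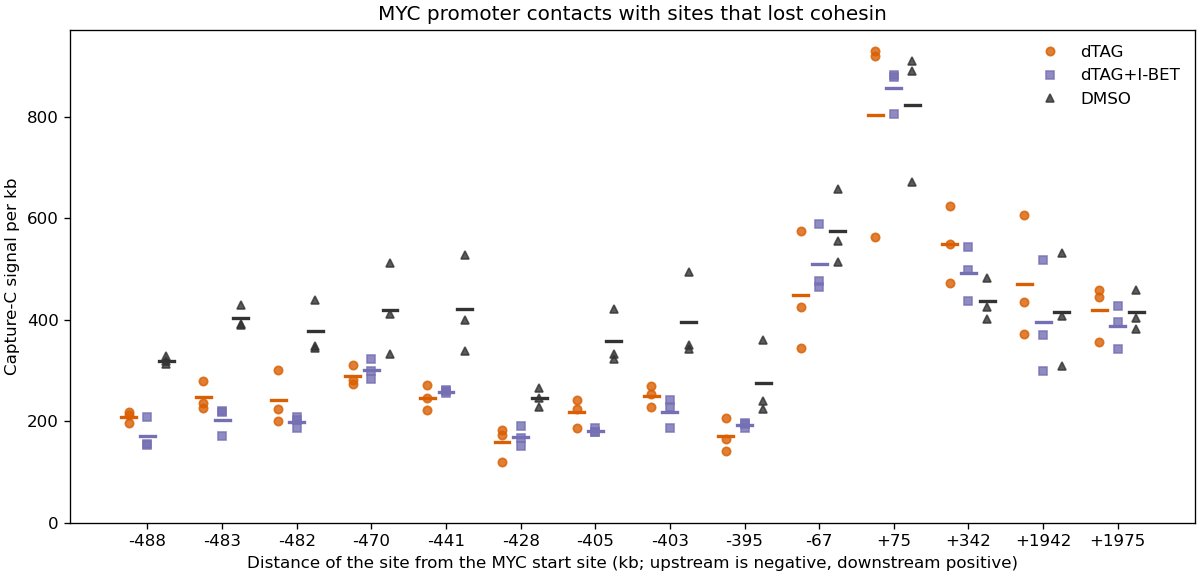
Signal per kb of the MYC promoter over 14 windows around sites that lost cohesin, ordered by distance from the start site in kb (upstream negative). Points are libraries and bars the means of 3 for dTAG, dTAG+I-BET and DMSO, and the 9 windows from 488 to 395 kb upstream show all treated libraries below DMSO, unlike the 5 others.

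Gene intervals had lower values upstream after treatment, but none was called. Of the 20 listed genes around MYC, 7 lie upstream and 13 downstream, and limma called none of them in either comparison with DMSO, where 0.0845% of 1183 gene intervals were called in dTAG and 0.423% in dTAG+I-BET over all viewpoints. An unadjusted p under 0.05 was found for 6 of the 20 in each, and edgeR called 3 in dTAG and 5 in dTAG+I-BET, all lower. The share of all gene intervals was not taken for these counts. All 7 upstream genes had log2 ratios below 0 in dTAG, with a median of -0.62, and 6 of them did in dTAG+I-BET, where 43.7% and 54.9% of all gene intervals were below 0. In 6 of the 7 all dTAG libraries were below DMSO, and in 5 all dTAG+I-BET libraries were, against 5.07% and 10.4% of all gene intervals. The intervals of CCAT2 and POU5F1B lie within CASC8, which CASC21 overlaps in part, and CCAT1 lies within CASC19. These intervals share fragments, so that the counts are not of separate observations.

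CASC21, the noncoding RNA gene that spans most of the cohesin-lost cluster, held 188, 188 and 196 per kb in dTAG, 193, 194 and 191 in dTAG+I-BET, and 331, 276 and 314 in DMSO. Each treated group lay below DMSO without overlap, yet the log2 ratios to DMSO of -0.68 and -0.67 missed the threshold over all gene intervals (limma adjusted p = 0.108 and 0.0975). The neighbouring CASC8 and POU5F1B, whose annotated bodies overlap each other and in part CASC21, had log2 ratios of -0.64 and -0.66 in dTAG and -0.58 and -0.56 in dTAG+I-BET, with no overlap of libraries. CCAT2, a noncoding RNA gene at a known colorectal cancer risk variant, had 247, 225 and 194 per kb in dTAG, 292, 344 and 232 in dTAG+I-BET, and 331, 355 and 334 in DMSO. Only dTAG was separated from DMSO there.

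CCAT1, a noncoding RNA gene transcribed from an upstream enhancer region in colon cancer, had the highest signal of the upstream genes outside the 100 kb next to MYC. It held 585, 526 and 637 per kb in dTAG, 494, 560 and 554 in dTAG+I-BET, and 842, 711 and 823 in DMSO. Its treated libraries were all below DMSO, with log2 ratios of -0.44 and -0.56 (limma adjusted p = 0.566 and 0.199). CASC19, which overlaps CCAT1, had log2 ratios of -0.33 and -0.42, likewise without overlap. The 50-kb bin 500 to 550 kb upstream, which holds CCAT1 and part of CASC19, was called among the 50-kb bins of all viewpoints. It held 392, 361 and 411 per kb in dTAG, 349, 409 and 422 in dTAG+I-BET, and 539, 499 and 576 in DMSO, with log2 ratios of -0.47 and -0.45 (limma adjusted p = 0.036 and 0.043). The call was kept in only 10 of 18 alternatives in dTAG and in 9 of 18 in dTAG+I-BET. Among the settings that lost both calls were rescaling and leaving out either the first or the second DMSO library. Adjusted p-values over the alternatives reached 0.609 in dTAG and 0.344 in dTAG+I-BET. CASC11, which starts next to MYC on the opposite strand, had overlapping groups and log2 ratios of -0.24 and 0.09.

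PVT1 held 485, 492 and 350 per kb in dTAG, 449, 446 and 440 in dTAG+I-BET, and 439, 433 and 343 in DMSO. The third dTAG library and the third DMSO library were the lowest of their groups, the dTAG+I-BET libraries lay just above DMSO, and the log2 ratios were 0.12 and 0.14 (limma adjusted p = 0.950 and 0.880). Among the microRNA genes within PVT1, the window of MIR1207 had 382, 383 and 330 per kb in dTAG, 383, 364 and 442 in dTAG+I-BET, and 299, 287 and 292 in DMSO. It was the one microRNA window whose treated libraries were all above DMSO, with log2 ratios of 0.31 and 0.43 that were not called (limma adjusted p = 0.680 and 0.292). The windows of MIR1204, MIR1205, MIR1206 and MIR1208 and of TMEM75 (named LINC02912 in GENCODE) had log2 ratios of 0.10 to 0.32 over both comparisons, with overlapping groups. LINC00824, a noncoding RNA gene beyond PVT1, held 192, 195 and 186 per kb in dTAG, 176, 183 and 188 in dTAG+I-BET, and 166, 164 and 155 in DMSO. All its treated libraries were higher than DMSO, with log2 ratios of 0.24 and 0.17 that were not called. Of the 13 downstream genes, 2 had all dTAG libraries above DMSO and 3 all dTAG+I-BET libraries, where 6.51% and 9.97% of all gene intervals did.

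No downstream bin within 500 kb passed the test in either comparison. Of the 49 downstream bins, 40 had a log2 ratio above 0 in dTAG (median 0.10) and 41 in dTAG+I-BET (median 0.18). Over all 1960 bins, 60.2% were below 0 in dTAG (median -0.07) and 47.8% in dTAG+I-BET (median 0.01). An unadjusted p under 0.05 was found for 2 in dTAG and 6 in dTAG+I-BET. In 3 of the 49 all dTAG libraries and in 9 all dTAG+I-BET libraries were above DMSO, where 6.28% and 15.1% of all bins were. The bin 390 to 400 kb downstream, in PVT1, had 432, 475 and 381 per kb in dTAG, 365, 396 and 426 in dTAG+I-BET, and 295, 359 and 255 in DMSO. Its treated libraries were all above DMSO, with log2 ratios of 0.51 (limma adjusted p = 0.145) and 0.39 (0.249). With each library scaled to the same total from 10 kb to 1 Mb, 1 MYC bin was called higher in dTAG and 2 in dTAG+I-BET, and with edgeR 0 and 0. For the counts by unadjusted p, after this scaling and with edgeR, the share over all viewpoints was not taken.

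Far downstream, from 500 kb to 2.5 Mb, contacts of MYC were well above the mean of other promoters. All 40 bins of 50 kb were above the mean of the other 19 viewpoints in DMSO, with a median log2 difference of 1.53, against 0.42 on the upstream side at the same distances. High far downstream contact was not particular to MYC. In DMSO, 4720, 10407 and 8715 of 21307, 47624 and 33485 interactions of MYC within the chromosome lay there. At KRR1 it was 5970, 9914 and 8483 of 31115, 51021 and 39270. The highest bin of MYC lay 1950 to 2000 kb downstream (129685434 to 129735433), between CCDC26, a noncoding RNA gene, and GSDMC, which encodes a pore-forming gasdermin. It held 458, 409 and 512 per kb in dTAG, 447, 432 and 439 in dTAG+I-BET, and 399, 365 and 554 in DMSO, against 13.3 over the other viewpoints. This level was close to that of PVT1 although the bin is several times farther away, and the groups overlapped (log2 ratios 0.08 and 0.02). Beyond it, signal dropped to 98.6 per kb at 2000 to 2050 kb in DMSO. CYRIB, which encodes an inhibitor of RAC1 signaling, held 29.2, 30.8 and 42.2 per kb in dTAG, 30.6, 30.7 and 35.3 in dTAG+I-BET, and 33.9, 34.7 and 33.1 in DMSO. CCDC26, LINC00977, GSDMC, CYRIB and ASAP1 had log2 ratios of -0.09 to 0.49 in dTAG and -0.09 to 0.17 in dTAG+I-BET, with overlapping groups.

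No far downstream bin of MYC was called in either comparison with DMSO, where 0.313% of 1595 bins were called over all viewpoints in each. An unadjusted p under 0.05 was found for 7 of the 40 in dTAG and 6 in dTAG+I-BET, and edgeR called 0 in both. Without the third DMSO library, limma called 1 in dTAG and 2 in dTAG+I-BET, and without the third dTAG library 2 in dTAG+I-BET, all higher. For the counts by unadjusted p, by edgeR and without single libraries, the share over all viewpoints was not taken. In dTAG 38 of the 40 bins had a log2 ratio above 0 (median 0.22), and 30 had in dTAG+I-BET (median 0.12), where over all viewpoints the medians were 0.07 and -0.04 and 38.2% and 55% of bins were below 0. In 5 bins all dTAG libraries and in 8 all dTAG+I-BET libraries were above DMSO, against 6.39% and 7.02% of all bins. The lowest p in dTAG belonged to the bin 900 to 950 kb downstream, at the end of CCDC26 nearer to MYC, with 402, 382 and 511 per kb in dTAG, 409, 362 and 378 in dTAG+I-BET, and 292, 296 and 386 in DMSO. The dTAG libraries were above DMSO except that the third DMSO library slightly exceeded the second dTAG library (log2 0.41, limma adjusted p = 0.476). Next by p in dTAG were the bins from 800 kb, which overlaps LINC00824, and from 1100 kb, in CCDC26, with log2 ratios of 0.29 and 0.33 and no overlap with DMSO (limma adjusted p = 0.714 each). In dTAG+I-BET it belonged to the bin 500 to 550 kb downstream, with 288, 322 and 265 per kb in dTAG, 325, 352 and 321 in dTAG+I-BET, and 260, 246 and 205 in DMSO. All dTAG+I-BET libraries were above DMSO (log2 0.49, limma adjusted p = 0.066). Next in dTAG+I-BET were the bins from 1850 and from 600 kb, with log2 ratios of 0.52 and 0.46 (limma adjusted p = 0.155 and 0.220).

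**Figure D5:**
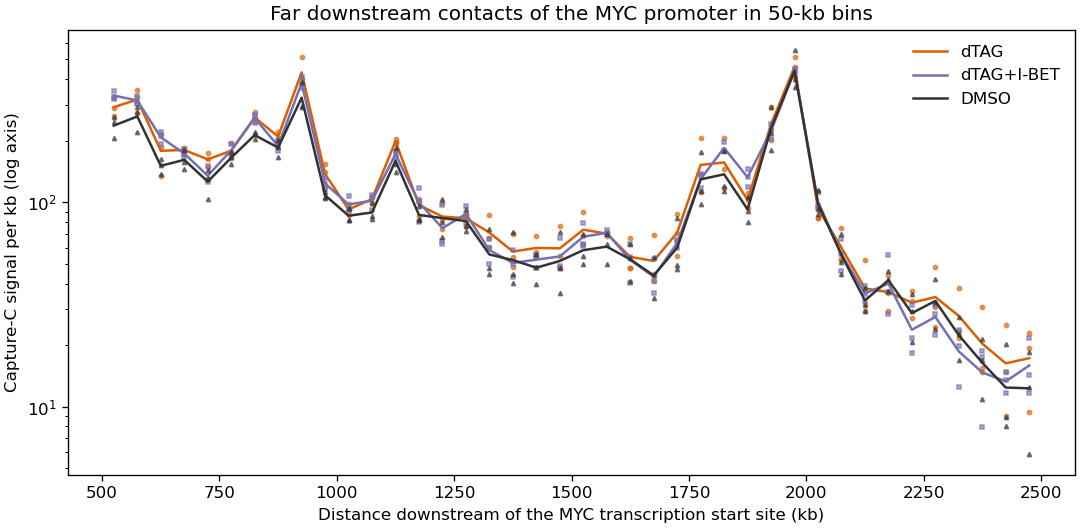
Signal per kb (log axis) of the MYC promoter in 40 bins of 50 kb by distance downstream of the start site in kb. Points are libraries and lines the means of 3 for dTAG, dTAG+I-BET and DMSO, and the lines share peaks in the bins from 900 and from 1950 kb, the second with means of 460, 439 and 439.

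Whether the upstream decrease differed from what other promoters showed was tested on the bands after subtracting a mean of the other 19 viewpoints. This mean came from the same library and distance and was averaged over both sides of each viewpoint. An upstream band of MYC was thus not set against the upstream bands of other promoters alone. At 200 to 500 kb upstream MYC minus this mean was -0.24, -0.26 and -0.15 in dTAG, -0.21, -0.19 and -0.20 in dTAG+I-BET, and 0.49, 0.28 and 0.36 in DMSO. MYC was above this mean of other promoters there in every DMSO library and below it in every treated library. The change was -0.59 in dTAG (SE 0.06, limma adjusted p = 0.00052) and -0.58 in dTAG+I-BET (SE 0.06, limma adjusted p = 0.00048). In dTAG 4 of the 14 MYC bands were called, all upstream and lower, at 50 to 100, 100 to 200, 200 to 500 and 500 to 1000 kb, where 16.8% of all 280 bands were called. The other 3 changes were -0.36, -0.39 and -0.35 (limma adjusted p = 0.0076, 0.0076 and 0.0052).

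In dTAG+I-BET 5 of the 14 changes were called against the same mean over both sides, where 22.5% of all bands were called. Upstream, the bands at 50 to 100, 200 to 500 and 500 to 1000 kb were lower. Downstream, those at 10 to 50 and 500 to 1000 kb were higher, by log2 0.24 and 0.27 (limma adjusted p = 0.040 and 0.038). Both higher calls were lost without the first DMSO library, without the third DMSO library or without any one dTAG+I-BET library, and the count was then 3 or 4, all lower. At 200 to 500 kb upstream the ratio of MYC was the lowest of the 20 viewpoints in both comparisons with DMSO, followed by HMGA2 (log2 -0.37 in dTAG and -0.39 in dTAG+I-BET), and the median over viewpoints was -0.04 and -0.02. Upstream is the side of lower coordinates for every viewpoint, whatever its strand, so that decreases on the other side do not enter this rank. The lowest downstream ratio at this distance was -0.30 at KRR1 in both comparisons. On the difference between upstream and downstream at this distance, MYC was lowest in dTAG (-0.80, HMGA2 -0.71), whereas HMGA2 was lowest in dTAG+I-BET (-0.72, MYC -0.71). At 50 to 100 and 100 to 200 kb that difference was lower at HMGA2 and MTAP than at MYC in both comparisons, with -1.51 and -0.84 against -0.55 at 100 to 200 kb in dTAG.

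By the shape of their DMSO contacts over 12 bands from 10 kb to 2.5 Mb, each relative to the mean of all viewpoints, HS3ST1 (Pearson r = 0.70), KRR1 (0.68) and PCDH7 (0.61) were most like MYC. Of these, PCDH7 was next to MYC at 500 to 1000 kb upstream in dTAG, with a log2 ratio of -0.25 against -0.30 at MYC. On the difference between upstream and downstream at this distance PCDH7 was also next to MYC in dTAG, with -0.54 against -0.58. The 12 bands are few and all viewpoints come from the same libraries.

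No contact of MYC was called different when I-BET was added to the dTAG ligand. Between dTAG+I-BET and dTAG, limma called 0 of 98 bins, 0 of 40 far downstream bins, 0 of 14 bands, 0 of 14 site windows and 0 of 20 gene intervals, and 0% in each of these sets over all viewpoints. An unadjusted p under 0.05 was found for 10 of the bins, 1 of the far downstream bins, 2 of the bands and 0 of the windows and gene intervals. With edgeR 0 were called in each. The shares over all viewpoints were not taken for these counts. No bin was below 0 within 100 kb upstream (median log2 difference 0.15), at 100 to 200 kb upstream (0.30) or within 100 kb downstream (0.28). Over all 98 bins 37 were below 0, and the median was 0.09, as over all viewpoints. At 100 to 200 kb upstream all dTAG+I-BET libraries lay above dTAG over the band (log2 difference 0.31, limma adjusted p = 0.608). At 10 to 50 kb the median over viewpoints was 0.29 upstream and 0.25 downstream. At 200 to 500 kb upstream the difference was 0.04 on the log2 scale, with a 95% interval of -0.15 to 0.23. Over the cluster it was -0.03, with an interval of -0.27 to 0.20, so that a further decrease of the cluster by more than 0.27 lay outside the interval.

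The bin with the lowest p in this comparison lay 20 to 30 kb downstream and held 868, 1073 and 996 per kb in dTAG+I-BET, against 675, 811 and 467 in dTAG. The dTAG+I-BET libraries were all higher, and the log2 difference of 0.62 did not pass (limma adjusted p = 0.713). Over the whole band from 10 to 50 kb downstream, signal per kb was 1098, 1151 and 1117 in dTAG+I-BET, against 998, 945 and 556 in dTAG. The third dTAG library lay far below the others (log2 difference 0.48, limma adjusted p = 0.608). At 310 to 320 kb upstream, dTAG+I-BET had 120, 119 and 128 per kb against 226, 193 and 151 in dTAG, the lowest log2 difference of any MYC bin (-0.61, limma adjusted p = 0.713). The bin 170 to 180 kb upstream was the third by p, with 182, 182 and 221 per kb in dTAG+I-BET, against 170, 99.5 and 126 in dTAG (log2 difference 0.59, limma adjusted p = 0.713).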

How the data were processed

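Capture-C was done by the authors on 3 replicates per treatment, with DpnII digestion, capture of 20 promoters and the CapCruncher pipeline on hg38 (bcl2fastq 2.17 in the submitters' processing notes). The deposited signal values are interactions per DpnII fragment, multiplied by 1 factor per viewpoint and library. Divided by the lowest non-zero value of their column, all 102057804 values came out whole (tolerance 0.01), and edgeR was run on these recovered interactions. Numbers of interactions cover counting error only.

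Fragments were assigned to regions by midpoint. Signal per kb was summed over 10-kb bins (10 to 500 kb on each side), 50-kb bins (500 kb to 2.5 Mb), bands, cohesin-lost sites with 5 kb added (joined where up to 50 kb apart), and genes of GENCODE 44 or RefSeq GRCh38.p14 (bodies of at least 5 kb, otherwise the start site with 5 kb on each side). Regions needed a mean of 2 per kb, a minimum extended after seeing the data to all regions. Tests used limma 3.58.1 (R 4.3.3) on log2(signal per kb + 1) with all 9 libraries and a variance trend for bins, adjusted by Benjamini-Hochberg over all 20 viewpoints, with a call at an adjusted p under 0.05. The edgeR version was 4.0.16, with its quasi-likelihood test. Exact permutation tests were two-sided. Shares over all viewpoints were taken for the main limma calls, for groups without overlap and for ratios below 0. Counts by unadjusted p, by edgeR or without single libraries have no such share beside them. The fits were tested on simulated data.

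Named were all called MYC bins, the 3 lowest p where none was called, the 5 bins of each side most above other viewpoints, all site windows and a list of genes. MYC, these lists and the tests were chosen with earlier results of these data known. Differences between upstream and downstream bands, and of the cluster to its surroundings, were added after seeing the data. Alternatives were rescaling, leaving out each library, a replicate block, other pseudocounts, bins, windows, joining distances and minimums, fits of 2 groups, and edgeR. No sequence is shown.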

Additional observations from a re-analysis of the deposited data

How the results depend on the processing

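The decrease over the upstream cluster of cohesin-lost sites kept its direction and its call in both comparisons with DMSO under all 17 alternatives, and its log2 ratio ranged from -0.72 to -0.59 in dTAG, from -0.75 to -0.63 in dTAG+I-BET and from -0.07 to 0.00 between dTAG+I-BET and dTAG when single libraries were left out. For dTAG against DMSO, the 4 bins called became 8 (7 lower) after rescaling, 14 with a replicate block, 2 when only 2 groups were fitted, 12 with edgeR, 7 when distance-matched to other viewpoints, 1 with bins of 5 kb and 11 with bins of 25 kb, and 0 to 9 without single libraries. For dTAG+I-BET against DMSO the 11 bins became 7 with bins of 25 kb and 4 to 16 without single libraries. The 0 site windows called in dTAG became 1 after rescaling, 9 with edgeR, 8 with 10 kb added and 0 to 3 without single libraries, and the 6 of dTAG+I-BET ranged from 3 to 6 without single libraries.

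The 1 band called became 3 (2 lower and 1 higher) after rescaling, 2 with a replicate block, 0 with 2 groups only, 2 with edgeR, 4 when distance-matched and 1 to 2 without single libraries in dTAG, and 2 after rescaling, 4 with 2 groups only, 5 when distance-matched and 1 to 4 without single libraries in dTAG+I-BET. The 0 far downstream bins became 0 to 1 without single libraries in dTAG, and 2 with a replicate block, 1 with 2 groups only and 0 to 2 without single libraries in dTAG+I-BET. The 0 gene intervals became 3 in dTAG and 5 in dTAG+I-BET with edgeR. Against the other 19 viewpoints, the 4 bands of dTAG became 7 with a replicate block and ranged from 4 to 6 without single libraries, and the 5 of dTAG+I-BET ranged from 3 to 5. The side differences ranged from 3 to 4 in dTAG and 3 to 5 in dTAG+I-BET. Single regions kept their side of the threshold in 746 pairs of region and setting, lost it in 113 and gained it in 2, and none that was called changed sign. The causes of these shifts were not tested.

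Libraries of different groups share only a replicate number. Deviations from the group means of same-numbered libraries correlated at -0.06 to 0.23, and 3 of the 6 libraries of dTAG and DMSO correlated best with their own number, 1 of 6 for dTAG+I-BET and DMSO and 0 of 6 for dTAG+I-BET and dTAG. The minimum of 2 per kb removed no 10-kb bin. The number of interactions in a 50-kb bin far downstream, 9 to 1090 in a library, limits what can be seen there, and changes below about the intervals given could not be detected with 3 libraries a group.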
